A study of Homo sapiens with 6 samples.

Results

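RNA at satellite loci of SW620 cells was compared between a tumour grown in a mouse and the 2D culture that followed it. SW620 is an established human line of colon cancer cells, taken from a metastasis in a lymph node. The comparison took in all 9566 of the 9566 satellite loci of the deposited table, chosen by no measured value, and asked at which of them RNA was kept, lost or gained when cells went back to culture. The xenograft was a subcutaneous tumour in Nu/Nu mice, which lack a thymus, and the culture after it was kept in RPMI1640 with 10% fetal bovine serum, as was the culture before it. All groups were SW620 cells, and each of the 3 stages gave 1 RNA library and 1 DNA library, so spread between replicates is unknown and no test between conditions was possible. A tumour holds host cells next to the human cells, and how mouse reads were handled is not given in the sources used here. In these bulk libraries fewer cells carrying an RNA and less of that RNA per cell cannot be told apart.

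Satellites are tandem repeats that make up much of the heterochromatin at and around human centromeres. Alpha satellite (named ALR/Alpha in the table) forms the arrays on which the kinetochore is built, and beta satellite (BSR/Beta) and human satellite II (HSATII) lie mainly in pericentromeric and acrocentric regions. Gamma satellites (GSAT, GSATII and GSATX) are GC-rich repeats next to the centromeres, and TAR1 is a subtelomeric repeat. The families (GAATG)n and (CATTC)n are simple repeats named by their unit, and GAATG is the reverse complement of CATTC, so both names describe the same repeat read from opposite strands. RNA from pericentromeric satellites is scarce in most differentiated cells and is known to accumulate in several epithelial cancers.

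Libraries were sequenced by Helicos single-molecule sequencing, which reads molecules without PCR amplification. Values were deposited as RPM, reads for every 1000000 of a library total, and a hit is a read assigned to a locus. Which reads enter that total is not given in the sources used here, and each ratio below rests on it. The RNA totals recovered from the values were 157326 reads for the culture before, 1077925 for the xenograft and 240046 for the culture after, so 1 read was worth 6.36, 0.928 and 4.17 RPM. A locus with 0 hits could hold up to 12.5 RPM in the culture after and 2.78 RPM in the xenograft, taking 3 reads as the limit. Levels are compared between families or loci in RPM per kb of annotated locus. Where loci are ranked by RPM, the rank is of the summed hits of a locus, whatever its length. Ratios below are the culture after over the xenograft, and their intervals (95%, exact conditional binomial, Clopper-Pearson) cover counting error only. Scaling by TMM, which centres the satellite loci themselves, multiplied every ratio by 0.626, a shift of -0.67 on the log2 scale. DESeq2 size factors multiplied it by 0.668. A ratio above 1 and under 1.60 therefore turns below 1 with TMM scaling, which holds for each such value below.

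Most satellite RNA of the tumour was not seen again in culture, while a smaller set of loci held more of it than before. A locus was counted as higher or lower when log2(RPM + 5) differed by at least 2-fold, among the loci that reached 20 RPM on one side or both. Of 429 such loci, 297 (69.2%) were lower in the culture after, 78 (18.2%) were higher and 54 (12.6%) lay within 2-fold. The counting interval excluded a ratio of 1 at 293 of the 297 lower loci, at 70 of the 78 higher loci and at 1 of the 54 others. With TMM scaling, 341 of 450 loci were lower and 32 were higher. With size factors, 340 of 459 were lower and 36 higher.

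The lower loci summed to 56422 RPM in the xenograft and to 654 RPM in the culture after, and 217 of the 297 had 0 hits in that culture. The higher loci went from 2509 RPM to 8036 RPM. Loci within 2-fold went from 1216 RPM to 1666 RPM. The culture before, which had no part in the calls, held hits at 77 of the 297 lower loci, at 60 of the 78 higher loci and at 40 of the 54 others. Its sums at the same loci were 1093 RPM, 1220 RPM and 604 RPM. The calls used the value in the culture after, and 45 of the 78 higher loci also had 20 RPM in the xenograft, so these sums are a description.

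**Figure D1:**
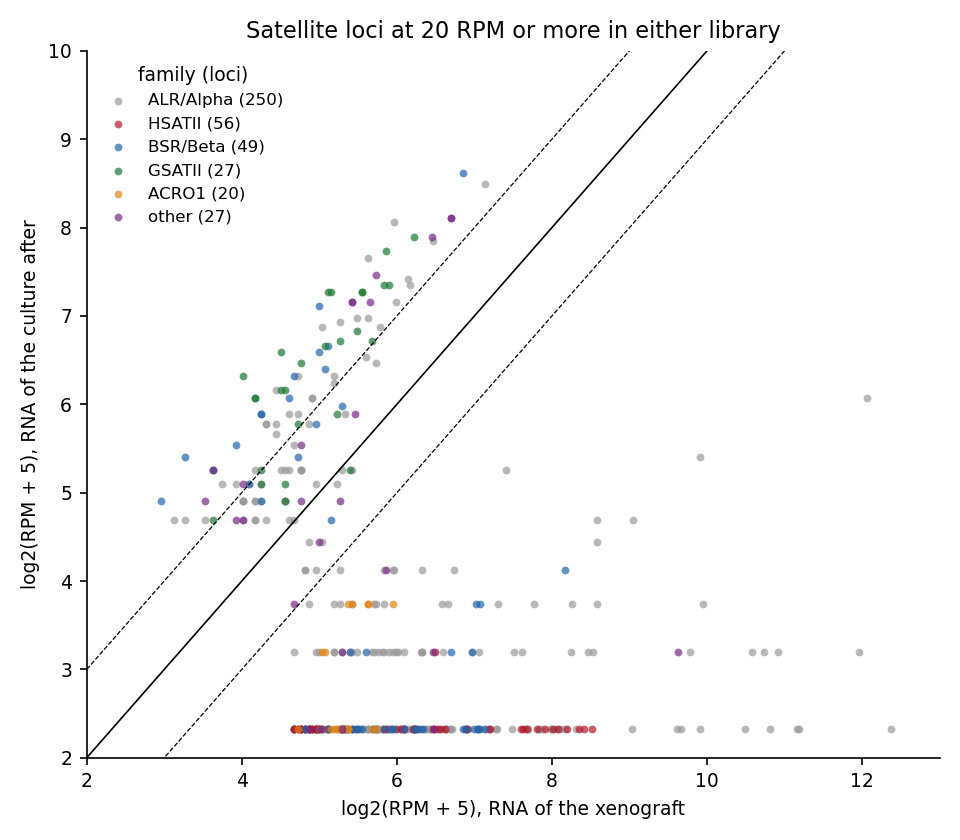
RNA of the 429 loci that reached 20 RPM on one side or both, as log2(RPM + 5) in the xenograft (x axis) and in the culture after it (y axis), with 1 point per locus coloured by family. The solid line marks equal values and the dashed lines a 2-fold difference. The lowest horizontal row is formed by 217 loci with 0 hits in the culture after.

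Because a minimum reached in 1 library favours a difference, the loci were also taken by each library alone. Among 372 loci with 20 RPM in the xenograft, 297 (79.8%) were lower, 45 (12.1%) higher and 30 (8.06%) within 2-fold. Among 130 loci with 20 RPM in the culture after, 78 (60%) were higher, 5 (3.85%) lower and 47 (36.2%) within 2-fold. Each minimum favours the library it is applied to, and the shares moved with that choice.

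All 5 loci that still held 20 RPM in the culture while being lower were alpha satellite arrays. The one with most RNA left was on chromosome X, from 58544096 to 58582011 (hg19, plus strand), and measured 95.3 RPM in the culture before, 4266 in the xenograft and 62.5 in the culture after, a ratio of 0.0146 (0.00819 to 0.0242). The others were on chromosomes 11 (at 50710445 and 50754587), 12 and 16, and their ratios ran from 0.0392 to 0.203.

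RNA was also found at fewer loci than the shallower library alone would give. The xenograft had hits at 4400 loci and the culture after at 638, with 544 in common, 3856 seen in the xenograft alone and 94 in the culture alone. Thinning the xenograft hits to the depth of the culture library by arithmetic gave an expected 2285 loci. Of the 94 loci seen in the culture alone, 90 had 1 hit and none had more than 2, so no appearance of RNA at a silent locus was detectable at this depth. HSATII was expected at 231 loci and found at 1, and alpha satellite was expected at 736 and found at 310. GSATII was expected at 44.5 loci and found at 43, and HSAT4 at 14.6 and found at 15, so the number of loci of these families matched what depth alone would give.

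HSATII, the pericentromeric satellite known to be expressed in epithelial tumours, had the lowest ratio of the families with at least 50 hits, 0.000603 (1.53e-05 to 0.00336). All 56 HSATII loci above the minimum were lower, and 55 of them had 0 hits in the culture after. Summed over 399 loci it measured 19.1 RPM in the culture before, 6908 in the xenograft and 4.17 in the culture after, that is 24.3 RPM per kb in the tumour against 0.0147 in the culture. The single remaining hit fell on chromosome 16, from 46385804 to 46387773 (hg19, plus strand), a locus of 85.3 RPM in the xenograft. The HSATII locus with most tumour RNA, on chromosome 10 from 42598547 to 42601361 (hg19, minus strand), went from 362 RPM to 0 hits and was at least 28.9-fold lower by the 3-read limit. On chromosome 10 as a whole, 2878 HSATII hits in the xenograft stood against 0. On chromosome 16, 3237 hits stood against 1, and on chromosomes 2 and 7 the 714 and 395 hits stood against 0 on each. The loss was thus seen on each of these 4 chromosomes, and no single locus held HSATII RNA above 1 hit.

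The simple pentamer repeats were lower as well. The (GAATG)n loci went from 2395 RPM in the xenograft to 37.5 in the culture after, a ratio of 0.0157 (0.00715 to 0.0298), and the (CATTC)n loci from 2044 to 54.2 RPM, a ratio of 0.0265 (0.0141 to 0.0454). They were expected at 395 and 316 loci and found at 9 and 13. Of the loci of both families, 3 (CATTC)n loci reached 20 RPM, all 3 lower, and the other hits were spread over many loci. SAR, a single annotated locus on chromosome 8, held 164 RPM per kb in the xenograft and 0.872 in the culture, the largest difference in RPM per kb among the families. HSATI, an AT-rich satellite, went from 207 hits to 1, a ratio of 0.0217 (0.000547 to 0.122). SATR1, with no locus at 20 RPM, went from 461 hits to 15, a ratio of 0.146 (0.0811 to 0.244). D20S16 had a ratio of 0.180 (0.0212 to 0.684) and HSAT5 of 0.128 (0.00316 to 0.763), from 50 and 35 hits to 2 and 1. MSR1, from 30 hits to 2, had a ratio of 0.299 (0.0347 to 1.18), whose interval holds 1. HSAT6 and SUBTEL_sa, with 5 and 1 tumour hits and 0 and 1 culture hits, were too rare to place.

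ACRO1, a repeat of acrocentric chromosomes, was lower at all 20 loci above the minimum, 13 of them with 0 hits. Its loci of 500 up to 2000 bp had a ratio of 0.0680 (0.0350 to 0.120). The 36 ACRO1 loci under 500 bp, none above the minimum, went from 82 hits to 24, a ratio of 1.31 (0.797 to 2.09) whose interval holds 1 and which was 0.823 with TMM scaling. ACRO1 DNA was also lower in the culture after, with a ratio of 0.597 (0.566 to 0.630) to the xenograft, and the part of this in the RNA was not tested. CER was lower at 3 of its 4 loci above the minimum, and over all 72 CER loci the ratio was 0.0910 (0.0413 to 0.174). SATR2 was lower at both of its 2 loci above the minimum, and over all 262 SATR2 loci the ratio was 0.218 (0.118 to 0.372).

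**Figure D2:**
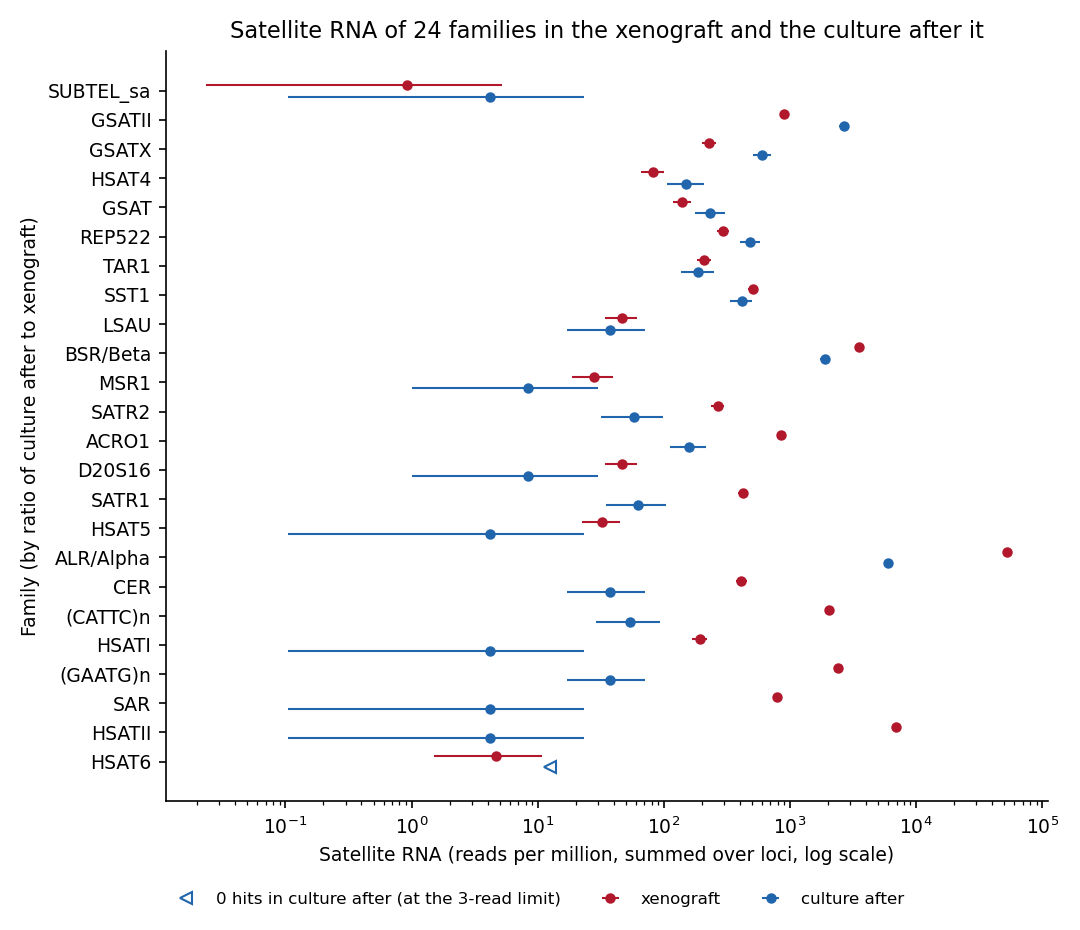
Satellite RNA of the 24 families, summed over loci in RPM on a log axis, in the xenograft (red) and the culture after it (blue), with exact Poisson 95% counting intervals and families ordered by ratio. An open triangle stands at the 3-read limit for the family with 0 hits in the culture. HSATII lies at 6908 and 4.17 RPM, and GSATII lies the other way round at 904 and 2662 RPM.

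Gamma satellites held more RNA on return to culture. Summed over GSAT, GSATII and GSATX the ratio was 2.75 (2.5 to 3.0), against 0.133 for all other families. GSATII measured 305 RPM in the culture before, 904 in the xenograft and 2662 in the culture after, and per kb its level went from 4.55 to 13.4 RPM. Of its 27 loci above the minimum, 22 were higher, 5 lay within 2-fold and none was lower. Among these 27, 4 shared their values in all 3 RNA libraries with another GSATII locus, so not all are separate evidence. GSATX was higher at all 4 of its loci above the minimum, but 2 of them, on chromosome Y, had equal values and are not separate evidence. Each of these held 107 of the 246 GSATX hits in the xenograft and 65 of the 145 in the culture after. The share of GSATX in all satellite hits went from 0.313% to 4.64%, and that of GSATII from 1.24% to 20.4%. The ratios of GSATII and GSATX stayed above 1 with TMM scaling, at 1.85 and 1.66. GSATII DNA was higher too, with a ratio of 1.29 (1.21 to 1.37), and its RNA per DNA (RPM over RPM) went from 1.60 to 3.65.

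The higher level of GSATII was spread over its loci, though near-identical copies may share reads and so are not all separate evidence. Of 26 GSATII loci with at least 20 hits, 22 had an interval that held the ratio of the rest of the family, 3 lay above it and 1 below. Without its leading locus the ratio was 2.91 (2.62 to 3.24). By chromosome it was 4.06 on chromosome 22, 3.37 on 21, 3.35 on 2, 3.14 on 9 and 2.84 on 4. It was 1.01 (0.524 to 1.83) on chromosome 14 and 0.788 (0.359 to 1.56) on chromosome 12, where the counting interval held 1, and with TMM scaling that of chromosome Y, 1.68 (0.864 to 3.12), became 1.05.

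The higher sums of GSAT and REP522 rested on few loci. GSAT as a family had a ratio of 1.67 (1.20 to 2.28), but a single locus on chromosome 8, from 47109801 to 47124802 (hg19, plus strand), held 73.2% of its hits in the culture. That locus measured 19.1 RPM in the culture before, 48.2 in the xenograft and 171 in the culture after, and without it the family ratio was 0.680 (0.367 to 1.18). REP522 had a ratio of 1.64 (1.32 to 2.04). Its locus on chromosome 22 from 22477210 to 22479804 (hg19, plus strand) went from 133 and 82.6 RPM to 233 RPM, and without it the ratio was 1.18 (0.874 to 1.58), or 0.740 with TMM scaling. REP522 was found at 11 loci against 31.3 expected, so its RNA was on fewer loci while its sum was higher.

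SST1 had a family ratio of 0.816 (0.652 to 1.01), with opposite directions on different chromosomes. Its hits on chromosome Y went from 107 to 78, a ratio of 3.27 (2.41 to 4.42). On chromosomes 19 and 9 they went from 197 to 4 and from 78 to 1, ratios of 0.0912 and 0.0576. Both SST1 loci above the minimum, each of 382 bp on chromosome Y at 6294586 and 9575413, had the same values of 38.0 RPM and 137 RPM. Equal values at separate loci of a family also occurred elsewhere, so reads may be counted at several near-identical copies, and these 2 loci are not separate evidence. Without both, the ratio was 2.16 (0.987 to 4.45) on chromosome Y, from 25 and 12 hits, and 0.320 (0.218 to 0.456) for the family. TAR1 was within 2-fold at all 3 of its loci above the minimum, and over all 161 TAR1 loci the ratio was 0.898 (0.637 to 1.24). LSAU lay within 2-fold on log2(RPM + 5) at its only locus above the minimum, although the plain ratio there was 0.408. Over all 129 LSAU loci the ratio was 0.808 (0.349 to 1.66). HSAT4 had a ratio of 1.84 (1.21 to 2.74), from 88 hits to 36. Its 1 locus above the minimum had a plain ratio of 2.04 but lay within 2-fold on log2(RPM + 5).

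Alpha satellite had the largest share of satellite RNA of any family in both libraries, and its loci differed widely among themselves. Its share of satellite hits was 72.2% in the xenograft and 45.5% in the culture after, and its level was 7.06 and 0.797 RPM per kb. Of 250 alpha loci above the minimum, 182 were lower, 36 within 2-fold and 32 higher. Among 261 alpha loci with at least 20 hits, the ratios ran from 0 to 4.56, with the interval below 1 at 190 loci and above 1 at 25. The leading 10 loci held 50% of the alpha hits of the xenograft, and 26 loci were needed to reach that share in the culture. The 32 higher alpha loci summed to 1029 RPM in the xenograft and 3016 in the culture. Another 182 went from 46643 RPM to 529.

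Beta satellite was also split. Of its 49 loci above the minimum, 30 were lower, 14 higher and 5 within 2-fold, while the family ratio was 0.538 (0.487 to 0.593). Of 46 beta loci with at least 20 hits, 26 had an interval below the ratio of the rest and 15 above it. The 30 lower loci went from 2711 hits to 11. The 14 higher loci went from 353 hits to 288, or from 327 to 1200 RPM.

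With all families pooled, lower loci were longer than higher ones. The median length was 8249 bp for the 297 lower loci, 5135 bp for the 54 within 2-fold and 2983 bp for the 78 higher loci. Families differed, with medians of 13426 bp for the 182 lower alpha loci and 5898.5 bp for the 30 lower beta loci. The 56 lower HSATII loci and 20 lower ACRO1 loci were short, with medians of 1517 bp and 1502.5 bp. The minimum was set on summed RPM, which a longer locus reaches at a lower RPM per kb. Per kb the median lower locus went from 9.64 RPM to 0, and the median higher locus from 8.36 to 27.8 RPM. Over all families, loci of at least 10000 bp had a ratio of 0.0450 (0.0409 to 0.0494). The ratio was 0.345 for 2000 up to 10000 bp, 0.424 for 500 up to 2000 bp and 0.240 for loci under 500 bp, so it did not run in one order with length. The shortest class holds many pentamer loci, and its ratio was 1.03 among alpha loci alone.

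Within alpha and beta satellite the longest class had the lowest ratio. In alpha satellite the ratio was 0.0398 (0.0359 to 0.0440) for arrays of at least 10000 bp and 0.349 (0.327 to 0.373) for 2000 up to 10000 bp. It was 0.343 (0.256 to 0.452) for 500 up to 2000 bp and 1.03 (0.647 to 1.59, or 0.647 with TMM scaling) for loci under 500 bp, the last from 113 and 26 hits. Of the 140 long alpha arrays above the minimum, 122 were lower and 5 higher, while of the 103 loci of 2000 up to 10000 bp, 58 were lower and 24 higher. In beta satellite the ratio was 0.104 (0.0777 to 0.136) for 2000 up to 10000 bp and 1.99 (1.73 to 2.27) for 500 up to 2000 bp. Loci under 500 bp had 2.07 (1.58 to 2.70), and without the locus with most hits these 2 short classes had 1.68 and 1.52, of which the second turned to 0.95 with TMM scaling. In SST1 the loci under 500 bp had a ratio of 2.66 (1.95 to 3.59) and those of 500 up to 2000 bp 0.303 (0.199 to 0.444). The first rests on the 2 equal loci on chromosome Y, and without them it was 0.591 (0.182 to 1.50), so no length order remained in this family. GSATII, with 3.14 and 2.82 in its middle classes, showed no such order.

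**Figure D3:**
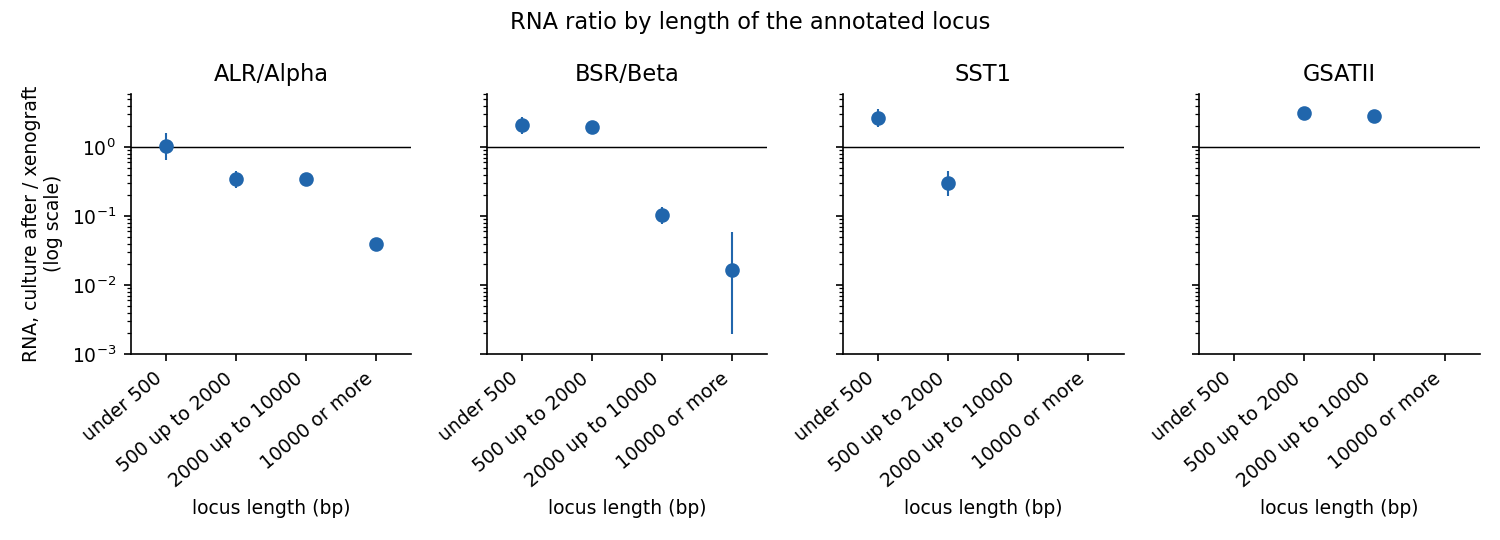
Ratio of RNA in the culture after to that in the xenograft (y axis, log scale) by length class of the annotated locus in bp (x axis) for 4 families, with 95% counting intervals and a line at 1. Length classes with under 20 hits are not drawn. Alpha and beta satellite lie lowest in their longest class, at 0.0398 and 0.0164, and GSATII lies above 1 in both of its classes.

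Chromosomes differed widely. Over all families the ratio was 0.0145 (0.00858 to 0.0229) on chromosome 10 and 0.0148 (0.00402 to 0.0379) on chromosome 18, and 5708 hits on the contig Un_gl000226 stood against 0. At the other end chromosome 22 had 1.07 (0.879 to 1.29, or 0.668 with TMM scaling), Y 0.781 (0.704 to 0.865) and 9 0.607 (0.530 to 0.693). The contig Un_gl000244, whose 3 loci are all GSATII, had 4.02 (2.92 to 5.53). Without alpha satellite the ratio of chromosome 9 was 1.75 and that of chromosome 19 was 1.13 (0.986 to 1.28), against 0.374 with it, and 0.706 with TMM scaling.

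Alpha satellite by itself also differed between chromosomes. Its ratio was 0.00240 (0.000290 to 0.00866) on chromosome 2, from 3748 hits to 2, and 0.00438 (0.000111 to 0.0245) on chromosome 18, from 1025 to 1. Chromosome 14 had 307 hits and then 0. Chromosomes 1, 10 and 9 had 0.0163, 0.0330 and 0.0538. Chromosomes 12, 16, 17 and Y had the highest values, 0.437, 0.425, 0.467 and 0.496, with intervals that overlap each other. On chromosome 17 a single array from 22241552 to 22263006 (hg19, plus strand) set the sum, with 44.5, 959 and 0 RPM at the 3 stages, and without it the alpha ratio of this chromosome was 2.70 (2.16 to 3.38). Without its leading locus the ratio of chromosome 16 was 0.857, while that of chromosome 2 was 0.00214.

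**Figure D4:**
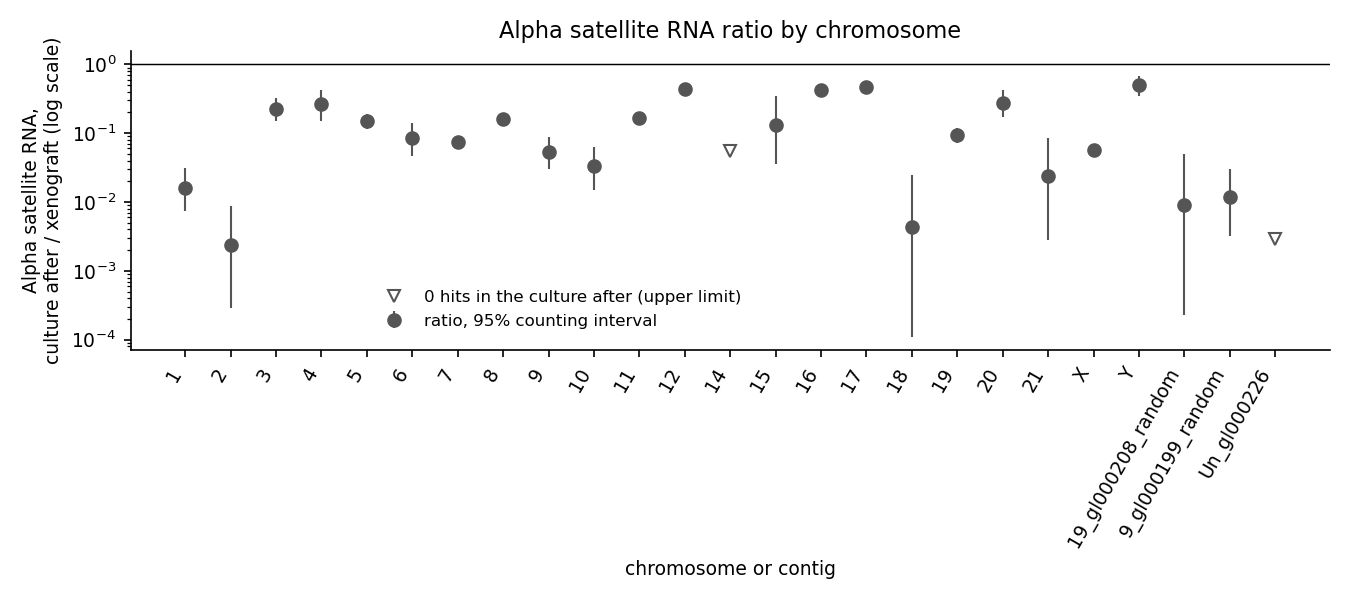
Ratio of alpha satellite RNA in the culture after to that in the xenograft (y axis, log scale) for each chromosome or contig with enough hits (x axis), with 95% counting intervals and a line at 1. Open triangles mark the upper limit where the culture had 0 hits, as on chromosome 14. Every point lies under 1, from 0.00240 on chromosome 2 to 0.496 on Y.

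Beta satellite parted by placement. On chromosome 19 its ratio was 1.41 (1.22 to 1.63), with 6 of 10 loci higher, but it turned to 0.884 with TMM scaling and 0.943 with size factors. A beta locus on that chromosome from 22073355 to 22075704 (hg19, minus strand) went against the others, from 63.6 RPM in the culture before and 283 in the xenograft to 12.5 in the culture after, and without it the ratio was 2.28. On chromosome Y the ratio was 1.08 (0.908 to 1.28), or 0.677 with TMM scaling, with 6 loci higher and 5 lower. On the unplaced contig Un_gl000225 all 16 beta loci above the minimum were lower, from 1302 hits to 5 over all beta loci there. On Un_gl000216 all 5 were lower, from 471 hits to 2.

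The share of loci called was close on both strands of the row names. Of 223 loci annotated on the plus strand, 40 (17.9%) were higher and 154 (69.1%) lower. Of 206 on the minus strand, 38 (18.4%) were higher and 143 (69.4%) lower. Summed hits gave 0.146 (0.139 to 0.153) for plus loci and 0.233 (0.221 to 0.245) for minus loci, and alpha satellite 0.0860 and 0.160. Without the locus with most hits on each strand the sums gave 0.165 and 0.272, and the pentamer loci are all on the plus strand. GSATII was alike on both, with 3.04 and 2.84. Which strand the reads came from is not given in the sources used here, so the strand of a locus is that of its annotation.

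Small families with a strand difference had few hits behind it. REP522 had 2.12 (1.65 to 2.70) on plus loci and 0.742 (0.424 to 1.23) on minus loci, and without its leading plus locus the former was 1.58, or 0.993 with TMM scaling. HSAT4 had 2.81 (1.79 to 4.36) on plus loci, from 56 hits to 35, and 0.140 (0.00345 to 0.840) on minus loci, from 32 hits to 1.

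The 15 loci with the highest log2 differences, 1.73 to 2.31, were 8 GSATII, 4 beta and 3 alpha loci. The GSATII loci on chromosome 4 at 49277565 and 49335199 had equal values and are not separate evidence. The highest was a GSATII locus on contig Un_gl000211 from 45222 to 48097 (hg19, minus strand), with 0, 11.1 and 75.0 RPM in the culture before, xenograft and culture after, a ratio of 6.74 (3.07 to 15.3). An alpha locus of 4584 bp on chromosome 17, from 21773058 to 21777641 (hg19, minus strand), measured 12.7, 57.5 and 262 RPM, a ratio of 4.56 (3.16 to 6.59). Another on that chromosome, from 22160887 to 22167531 (hg19, minus strand) measured 31.8, 44.5 and 196 RPM, a ratio of 4.40 (2.88 to 6.72). All of these stood highest in the culture after, which against the xenograft follows from how they were chosen. Against the culture before it rests on 0, 2 and 5 hits in that library.

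The locus with most RPM in the culture after was a beta locus of 657 bp on chromosome 19, from 24246058 to 24246714 (hg19, minus strand). It measured 25.4 RPM in the culture before, 110 in the xenograft and 387 in the culture after, a ratio of 3.51 (2.65 to 4.64), and 590 RPM per kb in that culture. The 10 loci with most RPM in the culture were 4 alpha, 2 GSATII, 2 GSATX, 1 beta and 1 REP522 locus, and all 10 were higher there than in the xenograft. The 2 GSATX loci, on chromosome Y at 19677922 and 20500617, had equal values of 99.3 and 271 RPM. The 10 loci with most RPM in the xenograft were alpha arrays, and all 10 were lower in the culture, so no locus led in both libraries. Each list was chosen by the RPM of 1 library, which favours a higher value in that library.

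The 15 loci with the lowest log2 differences, -10.05 to -6.42, were 14 alpha loci and SAR. The array on contig Un_gl000226 from 2 to 15004 (hg19) measured 89.0 RPM in the culture before, 5295 in the xenograft and 0 in the culture after. It was 424-fold lower if 3 reads are put in place of 0, with a lower 95% limit of 344-fold. The DNA of this array was 6527 RPM in the xenograft and 7250 RPM in the culture after. An array on chromosome 8 from 46838891 to 46863921 (hg19) measured 6.36, 2324 and 0 RPM. It was 186-fold lower by the same rule, with a lower 95% limit of 151-fold. An array on chromosome X from 61682015 to 61736573 (hg19) measured 12.7, 3984 and 4.17 RPM. These arrays stood much higher in the tumour than in either culture, which against the culture after follows from how they were chosen.

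Most neighbouring loci had the same call, but some of opposite direction lay side by side. Over all 429 loci above the minimum, 69.2% were lower and 18.2% higher. Of 281 pairs of neighbouring loci above the minimum and at most 100 kb apart, 227 had the same call and 23 had opposite calls, on 12 chromosomes or contigs. Of the 256 pairs within a family, 16 were opposite. On chromosome 12 the alpha locus from 38106868 to 38118797 (hg19, plus strand) went from 35 hits to 0. The alpha locus from 38118813 to 38127781, which begins 16 bp further on, went from 146 hits to 85 and measured 50.8, 135 and 354 RPM at the 3 stages, a ratio of 2.61 (1.98 to 3.44). On chromosome 17 the gaining locus at 22160887 lay in the same region as loci at 22229998 and 22241552 that went from 22 and 1034 hits to 0. On chromosome 21 an ACRO1 locus at 9698496 went from 48 hits to 2, a ratio of 0.187 (0.0220 to 0.714). A GSATII locus 854 bp away, at 9700905, went from 23 hits to 12, a ratio of 2.34 (1.06 to 4.91). Loci of either direction thus occurred within 100 kb of each other, though in a minority of the pairs.

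The RNA calls were set beside the DNA of the same loci. Summed over all loci, DNA had a ratio of 1.05 between xenograft and culture after. Among loci with at least 20 DNA hits in both libraries, the median DNA ratio was 1.04 at the lower loci, 1.24 at those within 2-fold and 1.41 at the higher ones, with ranges of 0.479 to 1.52, 0.580 to 2.06 and 0.819 to 2.67. The part of DNA in the higher RNA was not tested. Between the culture before and the xenograft, the DNA ratio differed from locus to locus, and DNA was lower in the xenograft at some of them. The 1512 loci with at least 20 DNA hits over these 2 libraries held 92.3% of the xenograft RNA hits and 85.4% of those in the culture after, and they were classed by that DNA ratio, a grouping chosen after the data were seen.

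Where the DNA ratio was under 2, summed DNA fell from 2644 RPM in the culture before to 1976 in the xenograft, a ratio of 0.747. It was 2641 RPM in the culture after. RNA of this class went from 1481 RPM in the culture before and 3193 in the xenograft to 7607 in the culture after. The RNA ratio was 2.38 (2.25 to 2.52), and of 86 loci above the minimum 60 were higher and 1 was lower. At a DNA ratio of 2 to 5 the RNA ratio was 1.50 (1.36 to 1.65), turning to 0.938 with TMM scaling. At 5 to 10 it was 0.173 (0.142 to 0.208). At 10 to 20 RNA went from 699 and 33688 RPM to 467, a ratio of 0.0138 (0.0114 to 0.0167), and 144 of 145 loci were lower. At 20 or more it went from 508 and 26174 to 329 RPM, a ratio of 0.0126 (0.00995 to 0.0157), and all 131 loci were lower. The lower loci were thus mainly those whose DNA in the tumour was at least 10 times that of the first culture.

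The same order was seen within alpha satellite, where the 5 classes had ratios of 2.18, 1.57, 0.229, 0.0143 and 0.0101. Without alpha satellite they were 2.50, 1.10, 0.106, 0.0116 and 0.0195, so the last 2 classes stood in the other order. In beta satellite they were 1.71, 2.00, 1.09, 0.00947 and 0.0335. With TMM scaling the value of 1.57 turned to 0.986, that of 1.10 to 0.687 and that of 1.09 to 0.682, while those of the lowest DNA class stayed above 1. Within that class the alpha ratios from the shortest to the longest loci were 1.85, 1.18, 2.27 and 1.63, the first 2 from 2 and 3 loci, so the length order given above was not seen there. At a DNA ratio of 10 to 20, alpha loci of 2000 up to 10000 bp and longer ones had 0.0143 and 0.0144. Of 72 higher loci with enough DNA hits, 71 had a DNA ratio under 5. Of 296 lower ones, 275 had a ratio of 10 or more and 2 had one under 5. Across 420 loci the log2 RNA difference and the log2 DNA ratio had a Spearman coefficient of -0.627 and a Pearson coefficient of -0.733. This is a description over loci that share libraries and, in part, reads.

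The exceptions are few enough to name. The beta locus at 22073355 on chromosome 19, given above, lost RNA from 305 hits to 3 although its DNA was 164 RPM in the culture before, 155 in the xenograft and 145 in the culture after. An alpha locus on chromosome 12 at 38132870 went from 27 hits to 0 with a DNA ratio of 3.52. An alpha locus on chromosome 20 at 29500229 was higher, from 9 hits to 7 in the smaller library, with a DNA ratio of 7.86. A CER locus on contig Un_gl000224 at 119727 stayed within 2-fold with a DNA ratio of 12.4.

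**Figure D5:**
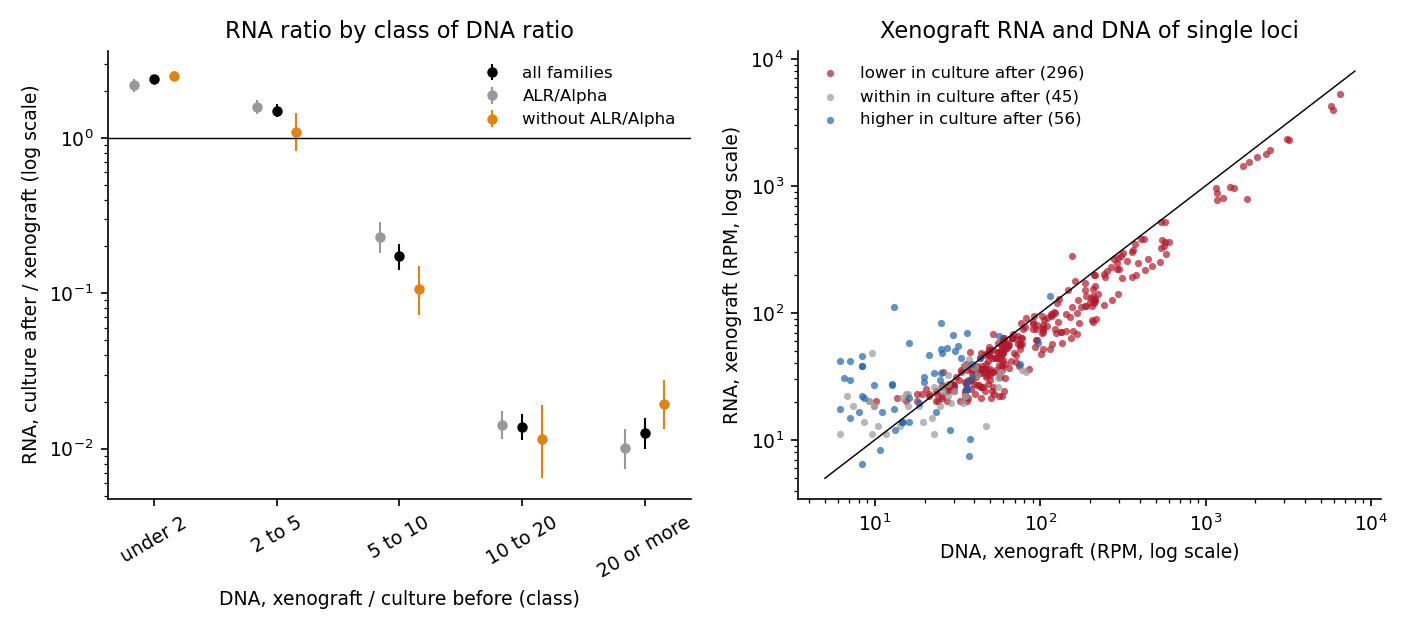
Left, ratio of RNA in the culture after to that in the xenograft (y axis, log scale) for 5 classes of the ratio of DNA in the xenograft to DNA in the culture before (x axis), for all families, alpha satellite and the rest, with 95% counting intervals and a line at 1. Right, RNA against DNA of single loci in the xenograft, both in RPM on log axes with a line of equality, coloured by the RNA call in the culture after, and most of the 296 lower loci lie along and just below the line.

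At the lower loci RNA in the xenograft stood close to DNA in the xenograft. Over 296 of them with at least 20 DNA hits in both libraries, RNA per DNA (RPM over RPM) had a median of 0.793 in the xenograft, with quartiles of 0.634 and 0.917. In the culture after the median was 0, which follows from the call, as 217 of the 297 lower loci had 0 hits there. The DNA itself had a median ratio of 1.04. For 56 HSATII loci the xenograft median was 0.560 (quartiles 0.474 and 0.622), and for 182 lower alpha loci 0.859 (0.780 and 0.952). The 55 higher loci with enough DNA went from 1.46 (0.931 and 2.36) to 3.28, and the 44 within 2-fold from 0.942 to 0.922. The quartiles of RNA per DNA lay closer together at the lower loci than at the higher ones. The calls used the RNA of both libraries, and the lower loci held 60819 xenograft hits over 297 loci against 2705 over 78. More hits narrow the counting spread, so no conclusion is drawn from this difference. Whether DNA reads have a part in the xenograft RNA library was not tested.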

How the data were processed

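RNA and DNA of SW620 cells were sequenced at 3 stages, with 1 library per group. The authors deposited RPM values per satellite locus, with coordinates in hg19 per the submitters' processing notes. Aligner, multi-read rule, strand rule, RPM denominator and mouse-read handling: not given in the sources used here. Read counts were recovered from the deposited RPM, as 100% of nonzero values were whole multiples of 1 read within 0.01. The recovered totals assume that the smallest step is 1 read. Loci were compared on log2(RPM + 5) among those with at least 20 RPM in either library, at 2-fold. This understates differences of low loci. Ratios carry 95% exact conditional binomial intervals, and levels exact Poisson intervals. No p-value is given for 1 library against 1. Named loci are the 15 highest and 15 lowest log2 differences, the 10 with most RPM in each library or with 0 hits after, and the extremes of families with at least 5 loci above the minimum. Other loci named as examples were chosen after their values were seen. Members and lists were chosen with earlier results of these data known, and DNA classes and neighbour pairs after the data were seen. Among 2402 loci with at least 20 hits over the 6 libraries, 176 (7.33%) shared all values with another locus of their family, so a read may count more than once. This held for 8 of the 78 higher loci (10.3%) and 2 of the 297 lower ones (0.673%). Scripts were tested on simulated data. Tools were Python 3.11.15, NumPy 2.4.6, pandas 2.3.3, SciPy 1.17.1, matplotlib 3.10.9, R 4.3.3, edgeR 4.0.16 (TMM) and DESeq2 1.42.0 (size factors, on recovered reads).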

Additional observations from a re-analysis of the deposited data

How the results depend on the processing

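With 1 library a side, no spread between cultures or tumours was measured, and no replicate could be left out. No paired analysis was possible because each group had 1 library. A count test on the recovered reads (exact conditional binomial, Benjamini-Hochberg adjusted), which compares these 2 libraries and not the conditions, called 70 of 429 loci higher and 291 lower. The culture after was the shallower library, which limits calls of loss at low loci. The count of higher loci, 78, became 32 with TMM, 36 with size factors and 45 with 20 RPM required in the xenograft. The count of lower loci, 297, became 489 and 159 at minimums of 10 and 50 RPM, 917 with no minimum, and 5 with 20 RPM required in the culture after, where fewer or more loci are tested by construction. The overall ratio of 0.179 became 0.112 with TMM, 0.119 with size factors, 0.168 with totals without satellite hits, 0.172 with identical loci counted once, 0.193 without the leading locus and 0.350 without alpha satellite. With TMM and size factors, the length classes from short to long gave 0.150 and 0.160, 0.266 and 0.283, 0.216 and 0.230, and 0.0282 and 0.0300. Plus and minus loci gave 0.0913 and 0.0974, and 0.146 and 0.156. Among alpha loci alone, the classes were 1.03 (a turn in direction), 0.343, 0.349 and 0.0398, and plus and minus loci gave 0.0860 and 0.160. Without alpha loci the longest class was 0.278 and the strands 0.314 and 0.400. Identical loci counted once gave 0.395 for 500 up to 2000 bp and 0.136 for plus loci. Totals without satellite hits gave 0.324 for 2000 up to 10000 bp, and 0.137 and 0.219 for the strands. Without the leading locus, 2000 up to 10000 bp gave 0.386, the longest class 0.0516, and the strands 0.165 and 0.272. The DNA class under 2 gave 1.49 (TMM), 1.59 (size factors) and 2.61 (without the leading locus), the class of 2 to 5 turned to 0.938 (TMM), and that of 20 or more gave 0.00788, 0.00840 and, without alpha satellite, 0.0195. Other turns in direction were GSAT without its leading locus (0.680), chromosome 17 without its leading locus (2.24), and chromosomes 9, 15 and 19 without alpha satellite (1.75, 1.12 and 1.13), and SST1 under 500 bp without its 2 equal loci (0.591), chosen after the data were seen. A turn in direction is of the value alone. The interval held 1 for GSAT (0.367 to 1.18), SST1 (0.182 to 1.50), chromosome 19 and the alpha loci under 500 bp. The cause was not tested for any of these changes.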
